A study of Mus musculus with 15 samples.

Results

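The genes described here encode subunits of ion channels in NMuMG cells, a line of normal mouse mammary gland epithelium. They are the genes whose symbols belong to the sodium (Scn), potassium (Kcn), calcium (Cacn), GABA-A receptor (Gabr), ionotropic glutamate receptor (Gri), CLC chloride (Clcn) and TRPC, TRPM and TRPV (Trp) families and whose mean reached 0.5 CPM over the samples of at least 1 of 2 RNA-Seq datasets. CPM is the read count of a gene scaled to the size of its library. Of 103 family genes listed in either dataset, 57 met this minimum and 46 did not, among 15701 genes in all. The first dataset contributed 52 members, the second 31, and 26 reached the minimum in both. The members were chosen by their measured mean level, so levels are given as a description. They were also selected on Scn8a and Gabre having been seen to be lower after PCBP1 knockdown, and that difference is described without a test. Just inside the minimum, at the higher of the 2 dataset means, were, among others, Cacnb4 (0.549 CPM), Kcnh2 (0.559 CPM) and Cacna1d (0.608 CPM). Just outside were Kcnn3 (0.453 CPM), Trpm2 (0.447 CPM), Kcnn1 (0.420 CPM) and Kcnt1 (0.416 CPM).

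The second dataset compared 2 samples of NMuMG cells, whose labels give no treatment, with 2 samples of shPCBP1 cells, in which a short hairpin RNA lowers PCBP1, an RNA-binding protein. The first dataset held 11 cell lines with 1 sample each, all of them carrying the PCBP1 hairpin. The 4 shPCBP1 lines were the unaltered line and 3 CT clones, which received Cas9 without a gene-specific guide. Beside them were 3 clones of FAM3C KO, 3 clones of LIFR KO and 1 line with both genes targeted. FAM3C is a secreted cytokine-like protein and LIFR is the receptor for leukemia inhibitory factor, and each KO line is 1 CRISPR clone labelled as homozygous for the deletion. The study's text calls the control of the second dataset a scrambled hairpin line, whereas the labels give untreated wild-type cells. Samples numbered as replicates were not stated to be separate cultures, so p values measure the spread between these samples, which may be technical.

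The Pcbp1 transcript stood at 287 and 312 CPM in the control samples and at 14.1 and 14.2 CPM in the shPCBP1 samples. Lifr was listed at 0 in both control samples and reached 2.94 and 2.40 CPM in shPCBP1. Fam3c was at 26.4, 33.9 and 42.9 CPM in FAM3C KO clones 1 to 3 against 47.0 to 59.4 CPM in shPCBP1. Lifr itself measured 34.9, 29.3 and 14.6 CPM in the LIFR KO clones against 25.8 to 40.2 CPM in shPCBP1, so for clones 1 and 2 the transcript level does not tell the LIFR KO libraries from the others. From the step between low values, 1 read was worth 0.0213 to 0.0624 CPM in the first dataset and 0.0177 to 0.0189 CPM in the second, for totals of 16034532 to 46902046 and 53016576 to 56500241 reads. LIFR KO clones 2 and 3 and the double KO stood apart from the other lines. The rank correlation of their deviations with gene GC content over 12581 genes was -0.76, -0.76 and -0.71, against -0.29 to 0.24 in the other 8 lines, and mitochondrial genes took 7.16% to 8.58% of their summed CPM against 3.14% to 4.06%. The labelled epithelial type was checked with 10 markers, of which 7 were listed in the second dataset and 6 in the first. Krt8, Krt18, Krt19 and Cdh1 were at 148.6 CPM or more in every sample, while Krt7 was at 1.07 to 3.96 CPM in the first dataset, Ocln was at 5.04 to 20.9 CPM there, and Cldn4 was at or under 0.124 CPM in the second.

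An ion channel is a pore in the membrane that lets selected ions pass down their gradient, and most channels are assembled from pore-forming alpha subunits with auxiliary subunits that set their traffic and gating. Voltage-gated sodium and calcium channels are best known from nerve and muscle, whereas inward rectifier, two-pore and calcium-activated potassium channels and CLC proteins also set the resting potential, volume and acid balance of epithelial cells. In mammary epithelium such channels work beside pumps that move ions between blood, cell and milk.

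The promoters of 5 members described below are shown, those of Scn8a and Gabre, which the group was chosen on, of Kcnk5 and Kcnj16, which were low after knockdown, and of Kcnj2, which was low in LIFR KO. Each window spans an annotated start with most of its bases upstream, is read on the coding strand and comes from RefSeq on GRCm38.p6. Capitals mark TTCNNNGAA, a STAT3 motif in which N is any base. The motif reads the same on both strands. STAT3 is the transcription factor that LIFR signaling activates.
Scn8a, chr15:100870395-100870694, plus strand: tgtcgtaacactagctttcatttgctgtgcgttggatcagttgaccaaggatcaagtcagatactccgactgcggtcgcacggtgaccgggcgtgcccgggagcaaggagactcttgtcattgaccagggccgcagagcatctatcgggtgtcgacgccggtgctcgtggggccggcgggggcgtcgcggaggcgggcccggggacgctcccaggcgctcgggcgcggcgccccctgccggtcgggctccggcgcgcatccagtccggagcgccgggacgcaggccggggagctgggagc
Gabre, chrX:72274672-72274971, minus strand: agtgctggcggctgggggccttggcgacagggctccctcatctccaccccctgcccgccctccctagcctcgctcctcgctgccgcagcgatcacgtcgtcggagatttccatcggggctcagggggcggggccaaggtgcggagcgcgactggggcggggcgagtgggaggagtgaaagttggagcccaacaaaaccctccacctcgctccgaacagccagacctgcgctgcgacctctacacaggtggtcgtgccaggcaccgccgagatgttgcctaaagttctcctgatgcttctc
Kcnk5, chr14:20181733-20182032, minus strand: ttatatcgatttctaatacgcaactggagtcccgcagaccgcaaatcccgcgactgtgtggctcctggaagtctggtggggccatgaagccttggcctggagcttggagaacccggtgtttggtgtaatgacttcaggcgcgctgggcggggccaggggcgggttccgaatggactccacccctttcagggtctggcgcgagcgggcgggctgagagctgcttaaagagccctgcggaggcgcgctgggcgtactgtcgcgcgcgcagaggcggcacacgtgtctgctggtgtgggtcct
Kcnj16, chr11:110967783-110968082, plus strand: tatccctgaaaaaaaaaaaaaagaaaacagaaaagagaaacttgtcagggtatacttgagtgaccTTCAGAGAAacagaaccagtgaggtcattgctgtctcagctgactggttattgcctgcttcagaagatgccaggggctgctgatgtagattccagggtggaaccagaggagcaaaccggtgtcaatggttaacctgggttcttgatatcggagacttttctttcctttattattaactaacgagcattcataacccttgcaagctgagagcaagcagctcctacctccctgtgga
Kcnj2, chr11:111065914-111066213, plus strand: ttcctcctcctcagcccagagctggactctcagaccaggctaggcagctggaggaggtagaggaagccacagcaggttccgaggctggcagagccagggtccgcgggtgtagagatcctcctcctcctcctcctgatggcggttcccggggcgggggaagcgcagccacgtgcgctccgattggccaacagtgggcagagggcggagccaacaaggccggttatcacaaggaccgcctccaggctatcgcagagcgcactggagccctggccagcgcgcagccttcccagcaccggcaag
Of these 5 windows, the Kcnj16 window held the motif and the others did not. Kcnj16 has 4 annotated windows, and the other 3 did not hold it, nor did either of the 2 windows of Scn8a. Over all members, 43 had at least 1 window, and 7 of their 61 windows (11.5%) held TTCNNNGAA, against 8.30% of 32851 windows of all genes. The 7 windows belonged to Clcn7, Gabrb1, Kcnj16, Kcnj9, Kcnk4, Scn2a and Trpm3. The Scn8a, Gabre, Kcnk5 and Kcnj2 windows held 38, 24, 26 and 18 CpG dinucleotides and the Kcnj16 window held 3, with a median of 10 over members and 7 over all genes. These matches describe the letters of the windows and no binding was measured.

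Divided by the length of the longest protein-coding transcript, the levels of the members differed by more than 2 orders of magnitude. In the first dataset the highest means per kilobase were those of Clcn3 (23.5 CPM per kb), a chloride-proton exchanger of endosomes, Kcnn4 (23.2 CPM per kb), the intermediate-conductance calcium-activated potassium channel, Trpm7 (16.6 CPM per kb), a magnesium- and calcium-permeable channel with its own kinase, and Cacnb3 (16.1 CPM per kb), a calcium channel beta subunit. In the second dataset the highest were Kcnn4 (17.9 CPM per kb), Cacnb3 (15.0 CPM per kb) and Clcn3 (11.3 CPM per kb). The Clcn family was detected most evenly, since all 7 of its members met the minimum in both datasets. Glutamate receptor subunits met it in 4 cases in the first dataset and in 1, Grin2d, in the second. Scn2a and Trpc5 were not analysed in the second dataset, nor Gabre and Cacna1e in the first.

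Knockdown of PCBP1 was compared with control in the second dataset to see which subunits differ when this RNA-binding protein is lowered. Of 31 members tested, 10 rose and 14 fell past an adjusted p of 0.07 (limma, Benjamini-Hochberg over 11384 genes), the threshold of the study's methods. The background was as broad, with 42.1% of all genes tested called higher and 38% called lower. With a fold of at least 1.5 as well, 6 members rose and 11 fell, or 19.4% and 35.5% of the members, against 16% and 15.1% of all genes. The median log2 fold change was -0.13 over the members and 0.02 over all genes, and its median size was 0.61 and 0.36. The 14 and the 11 include Scn8a and Gabre, on which the group was chosen. Without them, 10 rose and 12 fell of 29 members, 6 (20.7%) and 9 (31.0%) with the fold as well, and the median was -0.013. The members entered the test only if their mean reached the minimum, and 7 of the 31 reached it through 1 group alone (4 through the controls and 3 through shPCBP1) and so had to differ. These shares are therefore a description of those that passed. Under quantile normalization the split of calls was 7 higher and 17 lower.

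Scn8a (ENSMUSG00000023033, chromosome 15 of GRCm38 from 100869858 to 101045938) encodes the pore of the voltage-gated sodium channel Nav1.6. It stood at 98.5 and 99.1 CPM in the control samples and at 10.98 and 11.05 CPM in the shPCBP1 samples. The control values were 8.90-fold higher on the log2(CPM + 0.1) scale used for all fold changes, which understates the change of low genes. Gabre (ENSMUSG00000031340, chromosome X from 72255999 to 72274803) encodes the epsilon subunit of the GABA-A receptor, a chloride channel opened by GABA. It was at 19.2 and 19.03 CPM in the controls and listed at 0 in both shPCBP1 samples. These 2 genes helped to define the group, and no test is given for them here.

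3 further members were nearly or wholly lost. Kcnk5 (ENSMUSG00000023243, chromosome 14 from 20140057 to 20181809) encodes the acid-sensitive two-pore potassium channel TASK-2. It was at 41.4 and 41.0 CPM in the controls and at 0.161 and 0.166 CPM in shPCBP1, a log2 difference of -7.29 ± 0.10 (SE). Kcnj16 (ENSMUSG00000051497, chromosome 11 from 110968033 to 111027968), an inward rectifier subunit of epithelial potassium channels, was at 14.3 CPM in both control samples. Its shPCBP1 values were 0.359 and 0.407 CPM, a log2 difference of -4.90 ± 0.12. Cacna1e, the pore of R-type calcium channels, was at 2.20 and 2.02 CPM in the controls and listed at 0 in both shPCBP1 samples. For each of these genes the replicates lay close together and the groups were far apart. All 3 reached the minimum through the controls alone, and no p is given for them. In the plot of levels by sample, these genes and Scn8a and Gabre occupy the top rows.

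**Figure D1:**
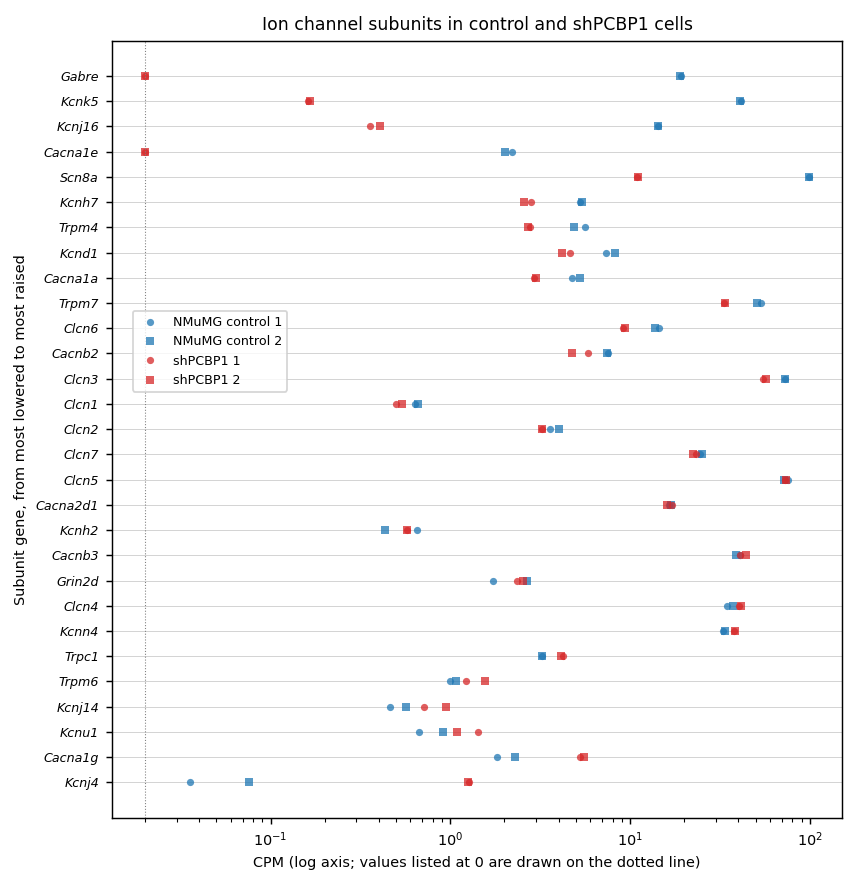
CPM (log axis) of 29 members tested in the second dataset, 1 point per sample, blue for NMuMG control and red for shPCBP1, ordered by the difference of the group means. Gabre, Kcnk5, Kcnj16, Cacna1e and Scn8a lie far to the left in red at the top, Kcnj4 far to the right in red at the bottom, and Clcn5 and Cacna2d1 overlap.

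Increases included a gene close to 0 in control cells. Kcnj4, the inward rectifier Kir2.3, went from 0.0355 and 0.0755 CPM to 1.27 and 1.26 CPM (log2 3.15 ± 0.20), and it reached the minimum through shPCBP1 alone, so no p is given. Both shPCBP1 values of Kcnj4 thus lay far above both control values. Cacna1g, the pore of the T-type calcium channel Cav3.1, was already present at 1.82 and 2.30 CPM and reached 5.29 and 5.56 CPM (2.57-fold, limma adjusted p = 1.6e-06).

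Scn3a, a neuronal sodium channel pore like Scn8a, was under the minimum here, at 0.266 and 0.170 CPM in control and 0.251 and 0.425 CPM in shPCBP1. Among calcium channel pores, Cacna1g rose while Cacna1e and Cacna1a fell. Cacna1a, the pore of P/Q-type channels, stood at 4.76 and 5.28 CPM in control and 2.90 and 3.01 CPM in shPCBP1 (log2 -0.74 ± 0.10, limma adjusted p = 4.82e-05).

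Auxiliary calcium channel subunits set the trafficking and gating of the pores. Cacnb2 fell from 7.52 and 7.40 CPM to 5.82 and 4.75 CPM (limma adjusted p = 9.03e-04). Cacnb3, at 40.9 and 38.8 CPM against 40.6 and 44.1 CPM, did not pass the threshold, with a 95% interval of the log2 difference from -0.01 to 0.19. Cacna2d1, an alpha2delta subunit, was at 16.4 and 16.9 CPM and at 17.04 and 16.1 CPM, with an interval from -0.13 to 0.11.

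Of 10 potassium channel members tested, 5 rose, 4 fell and 1 did not pass, beside 42.1% of all genes called higher and 38% called lower. Kcnn4 and Kcnu1, which share a class by symbol, both rose. Kcnn4 rose 1.15-fold, from 32.8 and 33.7 CPM to 38.01 and 38.3 CPM (limma adjusted p = 2.63e-04). Kcnu1, the sperm-type channel Slo3, rose 1.53-fold from 0.673 and 0.905 CPM to 1.43 and 1.09 CPM (limma adjusted p = 0.0106), a call kept in 7 of 10 alternatives (range of adjusted p 9.58e-04 to 0.134) and lost, for one, under quantile normalization (adjusted p = 0.111). Kcnd1, the A-type channel Kv4.1, fell 1.77-fold from 7.38 and 8.26 CPM to 4.61 and 4.16 CPM (limma adjusted p = 1.07e-05). Kcnh7, an ERG-family channel, fell 1.96-fold from 5.28 and 5.43 CPM to 2.80 and 2.57 CPM (limma adjusted p = 4.77e-06).

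Potassium channel classes were also summed. The 3 two-pore members summed to 41.7 and 41.3 CPM in control and 0.377 and 0.296 CPM in shPCBP1, which was almost wholly Kcnk5. The 6 inward rectifiers summed to 15.6 CPM in both controls and to 2.95 and 3.01 CPM in shPCBP1, and the difference was that of Kcnj16. Without it the other 5 summed to 1.28 and 1.35 CPM in control and 2.59 and 2.61 CPM in shPCBP1. Among them Kcnj14 rose 1.51-fold, from 0.460 and 0.566 CPM to 0.717 and 0.943 CPM (limma adjusted p = 0.0129).

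The CLC proteins summed to 226 CPM in both controls and 204 and 208 CPM in shPCBP1. Of the 7 tested, 3 fell, 1 rose and 3 did not pass, beside 38% of all genes called lower and 42.1% called higher. Clcn3 fell 1.29-fold from 72.6 and 72.9 CPM to 55.2 and 57.2 CPM (limma adjusted p = 4.2e-07). Clcn6, a late endosomal exchanger, fell 1.53-fold from 14.6 and 13.7 CPM to 9.10 and 9.31 CPM (limma adjusted p = 3.68e-06). Clcn7, the lysosomal exchanger, fell 1.09-fold from 24.5 and 25.3 CPM to 23.2 and 22.3 CPM (limma adjusted p = 0.0163). Clcn4, an endosomal exchanger, rose 1.14-fold from 34.6 and 37.4 CPM to 40.4 and 41.6 CPM (limma adjusted p = 0.00159). Clcn5, the exchanger mutated in Dent disease, overlapped between groups at 75.6 and 72.1 CPM and at 72.6 and 73.8 CPM, with a 95% interval of the log2 difference from -0.08 to 0.05.

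Among TRP channels, Trpm7 fell 1.56-fold from 53.7 and 50.6 CPM to 33.1 and 33.8 CPM (limma adjusted p = 3.62e-08). Trpm4, a calcium-activated cation channel, fell 1.88-fold from 5.63 and 4.85 CPM to 2.76 and 2.70 CPM (limma adjusted p = 1.4e-05). Trpc1, a nonselective cation channel subunit, rose 1.28-fold from 3.22 and 3.24 CPM to 4.25 and 4.10 CPM (limma adjusted p = 0.00623). Trpm6, a magnesium channel related to Trpm7, went from 0.991 and 1.08 CPM to 1.22 and 1.55 CPM. Its limma adjusted p was 0.0457, and 0.249 under quantile normalization, and it passed in 6 of 10 alternatives (range 0.0241 to 0.249).

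Of 73 further channels and pumps (a list that includes Ano, Lrrc8, Hcn, Scnn, Piezo, P2rx, Chrn, Itpr and ATPase genes), 46 were tested, of which 16 rose and 21 fell. Their median log2 fold change was -0.02, beside 0.02 over all genes, of which 42.1% were called higher and 38% lower. Chrna1, a subunit of the muscle-type acetylcholine receptor, went from 0.106 and 0.0378 CPM to 4.07 and 4.29 CPM. Lrrc8e, a subunit of the volume-regulated anion channel, went from 0.478 and 0.434 CPM to 7.22 and 6.86 CPM. Both reached the minimum through shPCBP1 alone, and no p is given. The epithelial sodium channel subunit Scnn1a fell from 5.68 and 5.30 CPM to 1.18 and 0.943 CPM (limma adjusted p = 3.64e-08). Atp2b4, a calcium pump of the plasma membrane, fell from 55.4 and 54.4 CPM to 10.4 and 9.81 CPM (limma adjusted p = 4.91e-12). Of 27 channel partners, 17 were tested, 8 rose and 6 fell, with a median of 0.16. Of the 17, Ank2, Kcnab2 and Kcnab3 again reached the minimum through shPCBP1 alone. Ank2, an ankyrin that anchors channels, went from 0.177 and 0.207 CPM to 1.42 and 1.76 CPM. Sgk1, a kinase that acts on epithelial channels, went from 7.73 and 7.15 CPM to 26.1 and 25.3 CPM (limma adjusted p = 3.9e-10).

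Marker genes of other cell types moved with the knockdown. The 10 mesenchymal markers summed to 536 and 557 CPM in control and to 1320 to 1355 CPM in shPCBP1. All 8 that were tested rose, beside 42.1% of all genes called higher, but Snai1, Snai2 and Twist2 reached the minimum through shPCBP1 alone. The summed level of the 7 epithelial markers listed was 2954 to 3007 CPM and 2776 to 2833 CPM, mostly Krt8 and Krt18. Of the 6 tested, however, 5 fell and 1, Krt18, rose, beside 38% of all genes called lower. Krt7 fell 11.2-fold from 18.6 and 18.7 CPM to 1.51 and 1.65 CPM (limma adjusted p = 4.63e-11), Ocln fell 2.30-fold and Cdh1 fell 1.57-fold (limma adjusted p = 9.39e-09 and 4.55e-10). Of the 6 neuronal markers listed, the sum was 1.76 to 2.28 CPM and 5.13 to 5.89 CPM, mostly Syn1 and Map2, while Rbfox3 and Tubb3 were at or under 0.018 CPM in every sample. The muscle list summed to 0.213 to 0.283 CPM and 0.466 to 0.629 CPM, with Ckm at or near 0, and the immune list to 1.47 to 1.72 CPM and 1.85 to 1.95 CPM, mostly Cd68. The part of these differences in the channel values was not tested. In bulk samples, fewer cells with a transcript and less transcript per cell cannot be told apart.

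The first dataset asked what the loss of FAM3C or of LIFR changes in cells that already carry the PCBP1 hairpin. For FAM3C KO against shPCBP1, 0 of 52 members passed the threshold in limma, beside 0.0872% of all genes called higher and 0.222% called lower among 12621. At an unadjusted p under 0.05 there were 5 members and 1286 genes in all, and no other kind of test was run. The median log2 fold change was 0.00 over the members and -0.01 over all genes. In 7 of the 52 members (13.5%) the groups did not overlap, beside 22.7% of all genes.

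Kcnd1 (ENSMUSG00000009731, chromosome X from 7822289 to 7838280) had the lowest unadjusted p in FAM3C KO. It was at 7.24, 9.15, 8.12 and 7.97 CPM in the 4 shPCBP1 lines and at 2.75, 2.12 and 1.00 CPM in FAM3C KO clones 1 to 3. All 3 clones lay below all 4 lines, by 2.10 ± 0.61 on the log2 scale (limma adjusted p = 0.235, with a range of 0.00875 to 0.565 over 20 alternatives). It passed when the groups were fitted alone (adjusted p = 0.00875), and also without LIFR KO clone 3. LIFR KO clones were at 5.79, 4.45 and 0.643 CPM, again below every shPCBP1 line, with a log2 difference of -1.59 ± 0.61 (limma adjusted p = 0.107, range 0.0161 to 0.734 over 21 alternatives). The 2 KO comparisons share the shPCBP1 lines. The double KO was at 4.03 CPM.

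Kcnj4 was at 2.18, 1.47, 0.687 and 1.92 CPM in the shPCBP1 lines and at 3.498, 6.04 and 3.03 CPM in FAM3C KO, above every shPCBP1 line (log2 1.41 ± 0.46, limma adjusted p = 0.281, range 0.0747 to 0.666 over 20 alternatives). Cacng8, an auxiliary subunit of AMPA receptors and calcium channels, was at 3.31, 1.62, 1.58 and 2.71 CPM and at 3.498, 4.32 and 3.88 CPM, likewise without overlap (log2 0.80 ± 0.30, limma adjusted p = 0.376, range 0.128 to 0.754). The files list Cacng8 under different Ensembl genes in the 2 datasets, and here it is ENSMUSG00000053395. Kcnu1 was at 4.24, 4.58, 6.59 and 4.50 CPM in shPCBP1 against 3.72, 3.16 and 2.46 CPM in FAM3C KO (log2 -0.66 ± 0.21, limma adjusted p = 0.281). Trpc1 was at 7.80 to 11.02 CPM in shPCBP1 and 6.91, 5.76 and 7.11 CPM in FAM3C KO (log2 -0.46 ± 0.18, limma adjusted p = 0.376). For these 4 genes all FAM3C KO clones lay on one side of all shPCBP1 lines, but no difference passed the threshold.

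The other members named for FAM3C KO did not pass either. Cacna1a was at 18.1 to 26.6 CPM in shPCBP1 against 16.6, 15.4 and 16.7 CPM in FAM3C KO (log2 -0.34 ± 0.19, limma adjusted p = 0.615). Cacnb2 was at 19.1 to 27.3 CPM and at 15.1, 20.8 and 16.98 CPM (log2 -0.35 ± 0.20, limma adjusted p = 0.635). Scn2a, a neuronal sodium channel pore, was at 1.66 to 4.61 CPM and at 3.59, 4.64 and 4.995 CPM (log2 0.65 ± 0.31, limma adjusted p = 0.514). Clcn1, the chloride channel of skeletal muscle, was at 1.25 to 1.86 CPM and at 2.52, 1.75 and 2.68 CPM (log2 0.48 ± 0.25, limma adjusted p = 0.564). The last 3 overlapped between groups.

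Scn8a, which was 8.90-fold lower in shPCBP1 cells of the second dataset, was at 21.5, 11.6, 15.4 and 8.97 CPM in the unaltered line and CT clones 1 to 3. FAM3C KO clones were at 20.4, 17.96 and 18.9 CPM, LIFR KO clones at 22.3, 17.6 and 13.6 CPM and the double KO at 13.9 CPM. The KO clones lay inside the range of the shPCBP1 lines, except LIFR KO clone 1 just above it. The log2 differences were 0.48 with a 95% interval from -0.11 to 1.08 for FAM3C KO and 0.35 with an interval from -0.24 to 0.95 for LIFR KO (limma adjusted p = 0.614 and 0.346). The datasets were normalized separately, so their levels are not compared. Kcnk5, nearly lost in shPCBP1 of the second dataset, was under the minimum in the first and stood between 0.0800 and 0.525 CPM in the 11 lines. Kcnj16 varied widely there, from 0.378 CPM in CT clone 3 to 3.82 CPM in CT clone 1, and was at the lowest value of the library, taken to mean no reads, in FAM3C KO clone 2 and LIFR KO clone 1. The remaining Kcnj16 values were 1.063 and 1.27 CPM in FAM3C KO clones 1 and 3, 0.333 and 0.3002 CPM in LIFR KO clones 2 and 3 and 1.03 CPM in the double KO. Neither comparison passed (limma adjusted p = 0.699 for FAM3C KO and 0.101 for LIFR KO). The LIFR KO mean of Kcnj16, 0.229 CPM, was under the minimum, which the gene reached through the other groups, so the second p carries that limit.

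**Figure D2:**
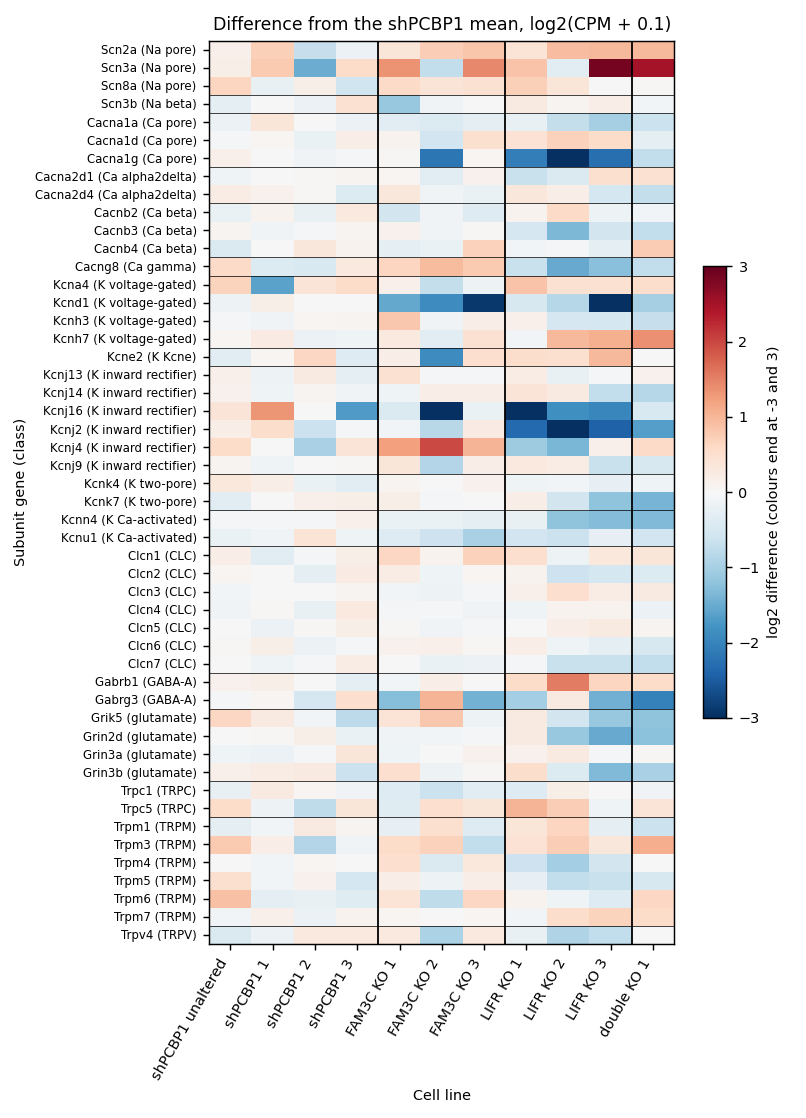
Difference of each of 50 members (rows, by class) from the mean of the 4 shPCBP1 lines in each of 11 lines (columns), on the log2(CPM + 0.1) scale, blue for lower and red for higher. Cacna1g, Kcnj2 and Kcnj16 are blue in all 3 LIFR KO clones, Kcnd1 is blue in all 6 single KO clones, and most other rows stay pale in FAM3C KO.

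LIFR KO was compared with the same shPCBP1 lines. Of 52 members, 1 rose and 6 fell past the threshold (1.92% and 11.5%), beside 0.911% of all genes called higher and 5.55% called lower. The median log2 fold change was -0.13 over the members and -0.16 over all genes, and with median-ratio rescaling, which brings the median of all genes to -0.01, the counts were 0 and 4. In 14 members (26.9%) the groups did not overlap, beside 17.2% of all genes. The count rested on few libraries. Without any 1 of the 4 shPCBP1 lines (the unaltered line or CT clone 1, 2 or 3) it was 0, without FAM3C KO clone 1 or 3 it was 2, without LIFR KO clone 2 it was 1, and without LIFR KO clone 1 it was 22. When clone 1 alone stood for LIFR KO, 3 members passed, all lower, and with the GC correction also 3, all lower.

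Kcnj2 (ENSMUSG00000041695, chromosome 11 from 111066164 to 111076821), the inward rectifier Kir2.1, showed the largest difference. It was at 2.62, 3.33, 1.41 and 2.20 CPM in the shPCBP1 lines against 0.376, 0.0416 and 0.343 CPM in the LIFR KO clones. The clone 2 value is the lowest of its library and equals the step worth 1 read there, so it may be 1 read or none. The LIFR KO mean of Kcnj2, 0.253 CPM, was itself under the minimum, which the gene reached through the other groups. The filter thus already implied a higher level in other groups, and the p values for Kcnj2 carry that limit. Every LIFR KO clone lay below every shPCBP1 line, by 2.94 ± 0.47 on the log2 scale (limma adjusted p = 0.0305, past the threshold in 16 of 21 alternatives, range 6.97e-04 to 0.0942). FAM3C KO clones were at 2.17, 1.24 and 2.73 CPM, so FAM3C KO was higher than LIFR KO by 2.72 ± 0.50 (limma adjusted p = 0.0366). The double KO was at 0.656 CPM. Kcnj2 and Kcnj16 are neighbors on chromosome 11 on the same strand.

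Cacna1g (ENSMUSG00000020866, chromosome 11 from 94408391 to 94474198) measured 18.5, 16.4, 15.4 and 16.3 CPM in the shPCBP1 lines against 3.86, 1.25 and 3.39 CPM in LIFR KO (6.30-fold lower, log2 -2.66 ± 0.53, limma adjusted p = 0.0388). It passed in 13 of 21 alternatives (range 0.00276 to 0.245) and not with LIFR KO clone 1 alone. Among FAM3C KO clones, clones 1 and 3 were at 17.1 and 17.3 CPM, within the shPCBP1 range, and clone 2 was at 3.64 CPM. FAM3C KO as a group therefore overlapped shPCBP1 (log2 -0.69 ± 0.53, limma adjusted p = 0.77), and without clone 2 its difference turned to 0.049. The double KO lay between, at 9.88 CPM.

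Kcnn4 was at 57.0, 56.4, 56.7 and 65.6 CPM in shPCBP1, at 50.0 CPM in LIFR KO clone 1 and at 25.3 and 23.7 CPM in clones 2 and 3 (log2 -0.92 ± 0.22, limma adjusted p = 0.0509, past the threshold in 9 of 21 alternatives, range 2.22e-05 to 0.416). The double KO was at 23.2 CPM, beside the clones with the same GC pattern, and FAM3C KO was at 51.5, 51.2 and 47.7 CPM. When clone 1 alone stood for LIFR KO, the Kcnn4 difference was -0.23.

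Cacnb3 (chromosome 15 from 98630840 to 98644529) measured 47.3 to 54.6 CPM in shPCBP1 against 36.1, 20.1 and 35.3 CPM in LIFR KO (log2 -0.80 ± 0.19, limma adjusted p = 0.0504), with the double KO at 30.5 CPM. It passed in 8 of 21 alternatives (range 0.00256 to 0.399). Cacnb3, Kcnh3 and Scn8a all lie beyond 98 Mb on chromosome 15, but only Cacnb3 of the 3 passed in LIFR KO. Cacng8 was at 1.34, 0.707 and 0.866 CPM in LIFR KO, below every shPCBP1 line (log2 -1.14 ± 0.30, limma adjusted p = 0.0641, past it in 4 of 21 alternatives, range 0.00485 to 0.563). Gabrb1, the beta1 subunit of the GABA-A receptor, was the only member to rise. It was at 2.23 to 3.13 CPM in shPCBP1 against 4.08, 8.23 and 4.42 CPM in LIFR KO (log2 0.91 ± 0.25, limma adjusted p = 0.0673, past it in 6 of 21 alternatives, range 0.00552 to 0.415), and the double KO was at 4.12 CPM.

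**Figure D3:**
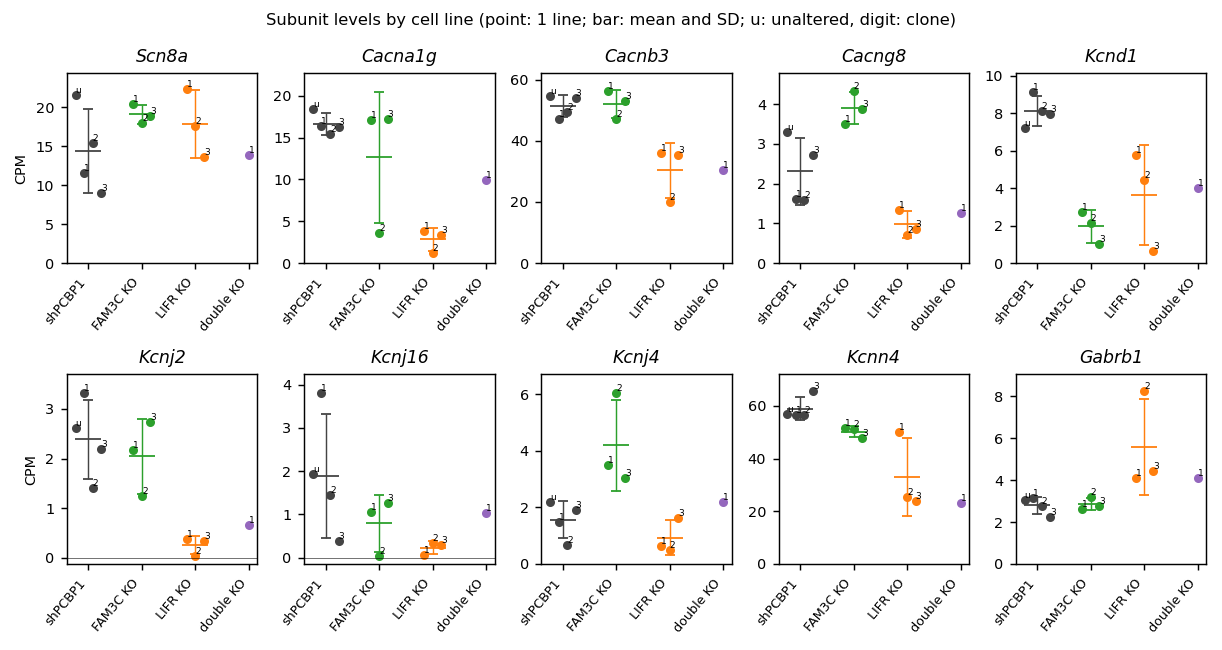
CPM of 10 members in each cell line of the first dataset, with points for lines, bars for the mean and SD of each group, and u for the unaltered line. Kcnj2 and Cacna1g are low in all 3 LIFR KO clones, Cacna1g is also low in FAM3C KO clone 2, and Kcnn4 is low in LIFR KO clones 2 and 3 and the double KO.

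Other members named for LIFR KO did not pass. Clcn3 was at 118 to 132 CPM in shPCBP1 against 140, 179 and 146 CPM in LIFR KO (log2 0.30 ± 0.10, limma adjusted p = 0.0908). Trpm7 was at 91.9 to 114 CPM and at 98.0, 150 and 163 CPM (log2 0.37 ± 0.16, limma adjusted p = 0.132). Kcnh7 was at 11.1 to 15.0 CPM and at 11.9, 24.9 and 26.5 CPM (log2 0.65 ± 0.28, limma adjusted p = 0.132). For Trpm7 and Kcnh7, clone 1 lay inside the shPCBP1 range while clones 2 and 3 lay above it, as did the double KO at 151 and 33.0 CPM. Scn2a was at 3.70, 5.28 and 5.49 CPM in LIFR KO (log2 0.77 ± 0.31, limma adjusted p = 0.114). Scn3a was at 0.243 to 1.56 CPM in shPCBP1, at 2.35, 0.480 and 2.54 CPM in FAM3C KO, at 1.66, 0.666 and 7.03 CPM in LIFR KO and at 5.39 CPM in the double KO, so 1 LIFR KO clone was far above the others.

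The LIFR KO differences varied with the GC content of the gene. Clcn3, Trpm7, Kcnh7 and Gabrb1 have a GC content of 41.1%, 40.1%, 39.6% and 40.9%, whereas Cacnb3, Cacng8 and Kcnn4 have 61.3%, 65.1% and 60.4%. Over the 52 members the rank correlation of the difference with GC content was -0.55 and -0.60 in LIFR KO clones 2 and 3 and -0.60 in the double KO, against -0.07 in LIFR KO clone 1 and -0.29 to 0.26 in the other lines. The points of 1 line share a library. After each library's trend on GC content was removed, the Clcn3 difference was -0.16 and that of Trpm7 was -0.12, both reversed. Gabrb1 (0.45), Cacnb3 (-0.27) and Cacng8 (-0.43) kept their sign but not the threshold. Kcnj2 (-3.39, limma adjusted p = 0.0321), Cacna1g (-2.28, adjusted p = 0.0547) and Kcnn4 (-0.43, adjusted p = 0.0654) stayed past it. Kcnj2 reached the minimum through groups other than LIFR KO, so its p carries that limit here too. The plot of differences against GC content shows these shifts.

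**Figure D4:**
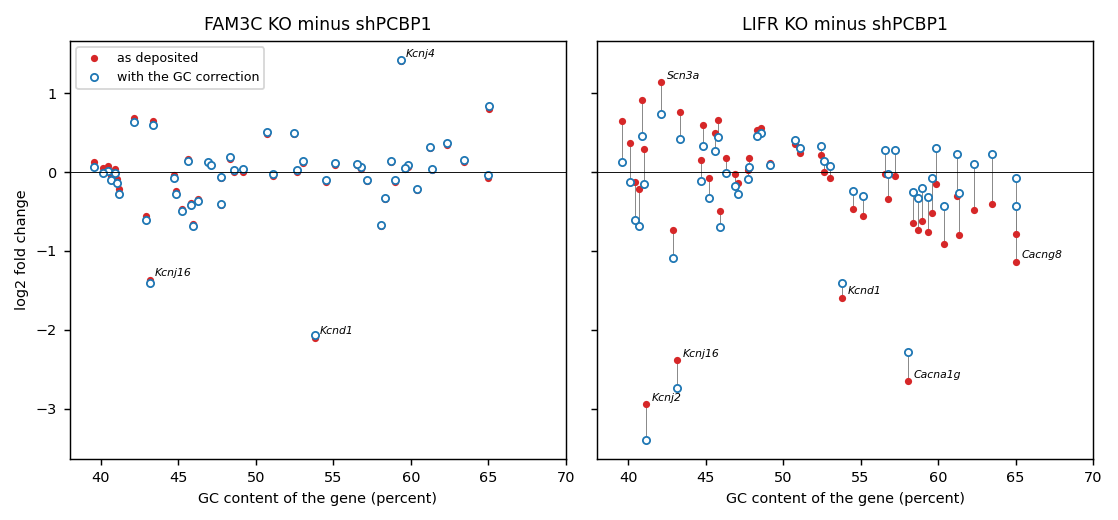
Log2 fold change of 50 members against the GC content of its gene for FAM3C KO (left) and LIFR KO (right), in red as deposited and as open blue circles with the GC correction, joined by lines. In LIFR KO the red points slope downward with GC content while Kcnj2, Cacna1g and Kcnj16 lie far below the rest with and without the correction, and in FAM3C KO the 2 sets nearly coincide.

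FAM3C KO and LIFR KO were also compared directly. Of 52 members, 6 were higher in FAM3C KO and 1 lower past the threshold, beside 6.83% and 1.45% of all genes. The median log2 difference was 0.17 over members and 0.14 over all genes. Besides Kcnj2 and Cacna1g (1.97 ± 0.56, limma adjusted p = 0.0679), the higher members were Kcnj4, Cacng8, Cacnb3 and Trpm4. The Cacna1g groups overlapped, as FAM3C KO clone 2 (3.64 CPM) lay below LIFR KO clone 1 (3.86 CPM). Kcnj4 was at 3.03 to 6.04 CPM in FAM3C KO and at 0.644, 0.499 and 1.63 CPM in LIFR KO (log2 2.16 ± 0.49, limma adjusted p = 0.0427). Cacng8 differed by 1.94 ± 0.33 (limma adjusted p = 0.0323), Cacnb3 by 0.82 ± 0.20 (limma adjusted p = 0.0469) and Trpm4, at 13.0, 6.72 and 11.5 CPM against 5.95, 4.45 and 6.18 CPM, by 0.86 ± 0.23 (limma adjusted p = 0.0596). Clcn3 was lower in FAM3C KO by 0.38 on the log2 scale (SE 0.11, limma adjusted p = 0.0657). With the GC correction 2 members passed, and 0 when these 2 groups were fitted alone. That count of 0 was also reached without FAM3C KO clone 1 or without clone 3, it was 1 without LIFR KO clone 2, 4 without FAM3C KO clone 2 and 2 or 3 without any 1 of the 4 shPCBP1 lines, and it was 12 and 25 without LIFR KO clones 3 and 1.

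In FAM3C KO, 0 of 58 further channels and pumps and 0 of 19 partners passed in limma, and 6 and 3 of them had an unadjusted p under 0.05. In LIFR KO 0 rose and 8 of the 58 fell, with a median log2 fold change of -0.44 beside -0.16 over all genes. Of the 19 partners 1 fell, and over all genes 0.911% were called higher and 5.55% lower. No value with the GC correction is given for list genes, Nlgn2 and Krt18 among them. Piezo2, a mechanically gated cation channel, was at 3.24, 4.73, 0.889 and 1.03 CPM in shPCBP1, at 0.107, 0.0832 and 0.172 CPM in LIFR KO and at 0.0886, 0.440 and 0.154 CPM in FAM3C KO, and as it reached the minimum through shPCBP1 alone no p is given. The partner that fell was Nlgn2, a postsynaptic adhesion protein of GABA synapses, at 28.4 to 35.9 CPM in shPCBP1 against 24.3, 15.1 and 17.6 CPM in LIFR KO (limma adjusted p = 0.038). Summed neuronal markers were at 7.03 to 15.7 CPM in shPCBP1, 17.5 to 35.6 CPM in FAM3C KO, 5.63 to 40.4 CPM in LIFR KO and 28.5 CPM in the double KO, mainly through Map2. The epithelial list summed to 2480 to 3185 CPM in shPCBP1, 2009 to 3041 CPM in FAM3C KO and 1228 to 2111 CPM in LIFR KO. The mesenchymal list summed to 1806 to 2051 CPM in shPCBP1 and 1305 to 1946 CPM in LIFR KO. In FAM3C KO it summed to 2085 to 2246 CPM, above every shPCBP1 line, mostly Vim and Fn1. Of its genes, Cdh2, Zeb1 and Zeb2 also lay above every shPCBP1 line in FAM3C KO, while Vim overlapped. Twist2 lay below, at 15.6, 5.59 and 18.7 CPM against 20.8 to 29.5 CPM. Twist1, at 0.0808 to 3.62 CPM in shPCBP1, was at the lowest value of the library in every FAM3C KO and LIFR KO clone. It reached the minimum through shPCBP1 alone. In limma 0 of the 10 genes passed in either KO (4 and 3 at an unadjusted p under 0.05). In LIFR KO 1 of the 6 epithelial markers passed, Krt18, which fell 1.65-fold (limma adjusted p = 0.0663). Their part in the channel values was not tested.

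By class, the summed level of the 3 calcium channel pores was 35.0 to 43.6 CPM in the shPCBP1 lines. It was 34.2, 19.3 and 34.7 CPM in FAM3C KO clones 1 to 3, and 22.2, 14.6 and 14.5 CPM in LIFR KO. From shPCBP1 to LIFR KO, the mean of Cacna1g went from 16.6 to 2.83 CPM and that of Cacna1a from 20.8 to 13.4 CPM. Cacna1d went the other way, from 0.529 to 0.827 CPM. All class sums are without the GC correction. The 6 inward rectifiers summed to 9.06 to 13.2 CPM in shPCBP1, 12.01 to 12.9 CPM in FAM3C KO and 6.06 to 7.34 CPM in LIFR KO. Kcnn4 and Kcnu1 together summed to 60.9 to 70.1 CPM, 50.1 to 55.2 CPM and 27.8 to 53.3 CPM, mostly Kcnn4. CLC proteins overlapped between shPCBP1 and each KO, at 334 to 385 CPM in shPCBP1, 320 to 342 CPM in FAM3C KO and 358 to 401 CPM in LIFR KO. The double KO is 1 line and was left out of the tests. There 3 members were more than 1 log2 unit above the shPCBP1 mean and 7 more than 1 below it. These counts were 1 and 10 in LIFR KO clone 2 and 2 and 12 in clone 3, the clones with the same GC pattern. LIFR KO clone 1 had 1 and 6, and FAM3C KO clones 1 to 3 had 2 and 3, 2 and 4, and 2 and 2. The share over all genes was not computed, so the counts only describe these libraries.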

How the data were processed

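RNA-Seq of total RNA after ribosomal RNA depletion was made by the authors with a directional library kit. By the study's methods, reads were trimmed, aligned to GRCm38 with Bowtie2 and quantified in Partek Flow, where the authors ran DESeq2. They deposited CPM for each sample, and in the second dataset also group means and their ratio, which were not used. The lowest value of each library of the first dataset, below which none lies, and 0.0001 in the second were taken to mean no reads. In the first dataset that lowest value equals the step worth 1 read, so there it may stand for 1 read or none. On the log2(CPM + 0.1) scale, limma 3.58.1 (R 4.3.3, with a trend of variance on level) was run on genes averaging 0.5 CPM or more over the fitted samples. The 3 groups of the first dataset (10 samples) shared 1 fit. Calls used an adjusted p under 0.07. Of the low values, 90.5% to 92.8% in the first dataset and 93.8% to 94.3% in the second were whole multiples of 1 read within 0.1 of a read and the rest were fractional, short of the 95% set for a test on counts, and none was run.

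The members and lists were chosen with earlier results of these data known. Genes named with a fold change were Scn8a and Gabre, the 10 largest changes each way in PCBP1 knockdown and the 5 each way in each KO among those past the threshold, without overlap and at 1 CPM in a group, filled in the KOs by lowest p. Also named were the 10 highest members of each dataset and Scn3a as listed by the study. Clcn6 and Kcnj14 were named after their values were seen. Counts, medians and sums cover every member, and the values of 3 of them are not reported here. Kcnd1, Kcnj16 and Cacna1g were followed in both KOs, and genes of the lists were picked after their values were seen. Gene starts equalled GENCODE M21 (GRCm38) within 1 base for 14306 of 14795 genes of the second dataset and 371 of 13870 of the first. Most gene starts of the first dataset thus differ from that annotation, and the release used for it is not known. Coordinates given here are those of GENCODE M21. The procedure was tested on simulated data. Figures were drawn with matplotlib 3.10.9. The alternatives, and the subtraction of the lowest value, chosen after seeing the data, are given below.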

Additional observations from a re-analysis of the deposited data

Results flagged for a closer look

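Among 30 named members, 3 had 1 of the 4 shPCBP1 lines far from the rest by Dixon's criterion, which chance alone meets in about 1 of 20 groups. Kcnu1 was at 6.59 CPM in CT clone 2, above the other 3 lines. Trpm6 was at 8.30 CPM in the unaltered line, against 3.44 to 3.80 CPM in the CT clones. Kcnn4 was at 65.6 CPM in CT clone 3, against 56.4 to 57.0 CPM in the other lines.

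For 7 named members the effect of FAM3C KO differed from that of LIFR KO in the direct limma comparison (adjusted p from 0.0323 to 0.0679). On the log2 scale, FAM3C KO minus LIFR KO was 1.97 for Cacna1g, 0.82 for Cacnb3, 1.94 for Cacng8, -0.38 for Clcn3, 2.72 for Kcnj2, 2.16 for Kcnj4 and 0.86 for Trpm4. For Cacna1g the 2 groups overlapped. None of the 7 passed with the replicate number as a block or with the 2 groups fitted alone.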

How the results depend on the processing

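The PCBP1 knockdown count of 24 members stayed within 1.5 times of itself in every alternative run (17 to 34), and leaving out 1 sample gave 20 to 26. The FAM3C KO count of 0 became 1 (Kcnd1) with the 2 groups fitted alone, and leaving out 1 sample gave 0 to 1. The LIFR KO count of 7 was 4 with median-ratio rescaling, 3 at an adjusted p under 0.05, 1 with the replicate block, 1 with the 2 groups fitted alone, 3 with the GC correction, 1 with the GC correction and replicate block, 3 when clone 1 alone stood for LIFR KO, and 0 to 22 when 1 sample was left out. The count of 7 for FAM3C KO against LIFR KO was 4 at an adjusted p under 0.05, 0 with the replicate block, 0 with the 2 groups fitted alone, 2 with the GC correction, 0 with the GC correction and replicate block, and 0 to 25 when 1 sample was left out. Where an arm was left with 1 sample, that sample was assumed to vary like the others. The causes were not tested.

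Same-numbered samples share only a number. Correlations of their deviations ran from -0.19 to 0.15 over the pairs of clones and were 0.05 in the second dataset, where the replicate block moved the count from 24 to 25.

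Reversed log2 differences were as follows. For Scn8a, FAM3C KO minus LIFR KO was -0.00917 with median-ratio rescaling, -0.067 with quantile normalization and -0.23 when clone 1 alone stood for LIFR KO, and it ran from -0.055 (without LIFR KO clone 3) to 0.30 when 1 sample was left out. In LIFR KO, Clcn3 was -0.16 and Trpm7 -0.12 with the GC correction, -0.17 and -0.14 with the replicate block as well, and with clone 1 alone Kcnh7 was -0.084 and Trpm7 -0.076. Clcn3 in FAM3C KO minus LIFR KO was 0.015 with the GC correction, with and without the replicate block. When 1 sample was left out, Cacna1g in FAM3C KO ran from -1.06 to 0.049 (without FAM3C KO clone 2), and in PCBP1 knockdown Clcn5 ran from -0.047 to 0.021 (without control 1) and Cacna2d1 from -0.052 to 0.033 (without shPCBP1 2). Of the other results for named members, 754 stayed on their side of the threshold, 165 lost it and 10 gained it. Where 1 read was worth up to 0.0624 CPM, counting error limits the members near 0.5 CPM.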
